A study of Mus musculus with 4 samples.

Results

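The proteasome subunit genes are the 46 of the 3624 measured genes whose symbols begin with Psma, Psmb, Psmc, Psmd, Psme, Psmf or Psmg. They were chosen by symbol, and no measured value entered the choice. By role they were 7 alpha ring genes, 7 constitutive beta ring genes, 5 immunoproteasome genes (Psmb8, Psmb9, Psmb10, Psme1 and Psme2), 6 base ATPases, 3 other base subunits, 8 lid subunits, 3 chaperones that assemble the base, 4 chaperones that assemble the core, and 3 others. The last 3 were Psme3, Psmf1 and Psmc3ip. Psmc3ip met the symbol rule but encodes a meiotic recombination factor and is no subunit. Psma8, Psmb11, Psme4 and Psme2b were not among the measured genes and were not analysed here.

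The proteasome degrades proteins tagged with ubiquitin. Its core particle is a barrel of stacked alpha and beta rings with the protease sites inside, and a regulatory particle on its end recognises the substrate (base and lid), removes the ubiquitin (lid) and unfolds the chain (base ATPases). In many immune and blood cells the catalytic beta subunits Psmb5, Psmb6 and Psmb7 are exchanged for Psmb8, Psmb9 and Psmb10, and the Psme1 and Psme2 proteins form an activator cap. This immunoproteasome is best known for producing peptides for class I antigen presentation and for its induction by interferons.

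Single-cell RNA sequencing (10x Genomics Chromium, counting unique molecular identifiers or UMIs) was performed on Lin-Sca1-Kit+CD34+ myeloid progenitors sorted from the fetal liver of C57Bl/6J mice at E14.5. Wild-type embryos gave the libraries F and I. Gata2-77-/- embryos, which gave the libraries A and B, lack an enhancer upstream of the hematopoietic transcription factor gene Gata2. The deletion is germline, so every cell of the embryo carries it. Each genotype was represented by 2 libraries, and p-values of genotype differences below measure the spread between these libraries. The sources used here do not say whether a library held 1 embryo or a pool. Contrasts between classes and interactions had the library as a factor. Their p-values measure how much class differences vary between libraries.

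The files held 1938 to 3042 cells and 16837863 to 40117680 UMIs per library, and no cell had the same counts as another. The median UMI count per cell was 12826.5 in F, 17437.5 in I, 7492 in A and 7087 in B, so wild-type cells were 1.97 times deeper. Levels are given as CPM, the counts scaled to a library total of 1000000 over the 3624 genes, a scale that does not correct for transcript length. Gata2 stood at 26.3 (F), 23.2 (I), 7.48 (A) and 6.73 CPM (B). Of the markers of the sort, Kit stood at 39.6 to 45.2 CPM, and Sca1 was not among the measured genes. Cd34 stood at 186 (F), 210 (I), 306 (A) and 333 CPM (B), higher in both enhancer-deleted libraries. Clusters of cells were named from marker genes. Neutrophil-like cells made up 35.5% and 27.4% of F and I but 4.16% and 2.91% of A and B. The erythroid-like cells numbered 51 (F), 37 (I), 3 (A) and 3 (B), and cluster 12, which carried erythroid, megakaryocyte and mast cell markers and was left unnamed, 292 (F), 141 (I), 3 (A) and 2 (B). In sums over all cells, fewer cells of a type and less RNA per cell cannot be told apart.

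Over all cells, the immunoproteasome genes were higher in the enhancer-deleted libraries. Psmb9, Psmb8 and Psmb10, the 3 inducible catalytic subunits, rose 1.39-fold, 1.35-fold and 1.29-fold, and Psma7, an alpha ring subunit, rose 1.21-fold. These were the only 4 of the 46 genes that passed an adjusted p of 0.05 in edgeR's quasi-likelihood test, and none fell. Of all 3622 genes tested, 8.86% passed in either direction and 2.76% passed as higher. The log2 fold change was above 0 for 37 of the 46 genes. Its median was 0.37 over the 5 immunoproteasome genes, 0.07 over the other 41 and 0.00 over all genes tested.

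Psmb9, whose product replaces the caspase-like subunit Psmb6, stood at 83.3 (F), 82.6 (I), 116 (A) and 124 CPM (B). Its log2 fold change was 0.48 (SE 0.05, edgeR adjusted p = 0.00830). Psmb8, which replaces the chymotrypsin-like subunit Psmb5, stood at 281 (F), 285 (I), 376 (A) and 414 CPM (B). For both genes the libraries of a genotype lay close together and the genotypes did not overlap. The log2 fold change of Psmb8 was 0.43 (SE 0.06, edgeR adjusted p = 0.0178). Psmb10, which replaces the trypsin-like subunit Psmb7, stood at 177 (F), 202 (I), 246 (A) and 259.9 CPM (B), a log2 difference of 0.37 (SE 0.08, edgeR adjusted p = 0.0487). Psmb10 and the next gene lay just inside the threshold. Psma7 stood at 906 (F), 949 (I), 1129.7 (A) and 1204 CPM (B), a log2 difference of 0.28 (SE 0.06, edgeR adjusted p = 0.0492).

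The activator genes had the same order of libraries but did not pass. Psme1 stood at 319 (F), 319 (I), 376 (A) and 385 CPM (B) (log2 difference 0.20, edgeR adjusted p = 0.134). Psme2 stood at 289 (F), 311 (I), 356 (A) and 379 CPM (B) (log2 difference 0.24, edgeR adjusted p = 0.0837). Both enhancer-deleted libraries were thus above both wild-type libraries for all 5 immunoproteasome genes. The same held for 17 of the other 41 genes, and no gene of the 46 had both enhancer-deleted libraries below. Over all genes tested, 35.5% were separated as higher and 18.5% as lower. An exact permutation of 2 against 2 libraries cannot give a two-sided p below 0.333. Counts of Psmb5, Psmb6, Psmb7 and Psme2 are less certain, since the annotation lists pseudogenes or a close copy of each with which reads could be shared.

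**Figure D1:**
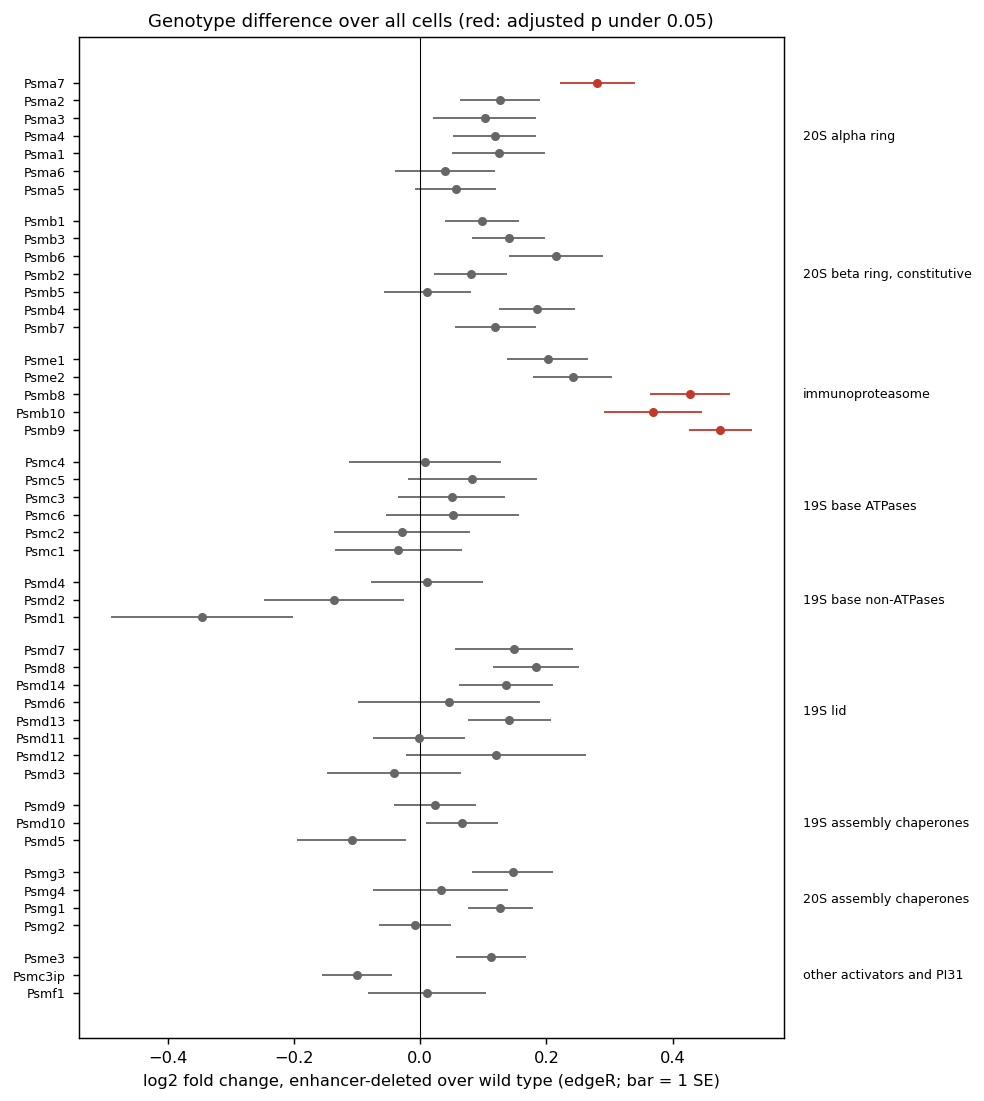
Log2 fold change (enhancer-deleted over wild-type libraries, all cells) of each proteasome gene with its standard error, grouped by role, with red points for an adjusted p under 0.05. The 4 red points are Psmb9, Psmb8, Psmb10 and Psma7, all to the right of 0, and Psmd1 lies farthest to the left at -0.35.

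The ratio of an immunoproteasome gene to the gene it replaces does not depend on the library total. The UMIs of Psmb8 per UMI of Psmb5 came to 0.607 (F), 0.581 (I), 0.813 (A) and 0.775 (B). Psmb9 per Psmb6 came to 0.175 (F), 0.158 (I), 0.208 (A) and 0.192 (B). Psmb10 per Psmb7 came to 0.531 (F), 0.553 (I), 0.652 (A) and 0.638 (B). Over all cells both enhancer-deleted libraries had the higher ratio in each pair. These sums mix classes whose shares differed between the libraries. Within classes the order did not always hold, since Psmb8 per Psmb5 overlapped in HSPC-like cells (0.841, 0.720, 0.829 and 0.764 in F, I, A and B), as did Psmb10 per Psmb7 in neutrophil-like cells (0.492, 0.502, 0.637 and 0.5).

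Library sums over all cells mix levels per cell with the makeup of the library, and the makeup differed. The sums were then rebuilt with the same mix of 7 classes of cells in every library, those with at least 50 cells in each. Erythroid-like cells and clusters 1, 4, 5, 12 and 13 were thus left out. In these sums 0 of the 46 genes passed in edgeR, 4 had an unadjusted p under 0.05 (12.04% of all genes did), and 0.333% of all genes passed. Psmb9 was then at a log2 difference of 0.25 (edgeR adjusted p = 0.230), Psmb10 at 0.27 (adjusted p = 0.228), Psma7 at 0.22 (adjusted p = 0.228) and Psmb8 at 0.16 (adjusted p = 0.505). The largest drop among these 4 was that of Psmb8, from 0.43. In the sums over all cells, which of the 46 genes passed changed with the library left out. Psmb9 passed without B, Psmb9 as higher and Psmd1 as lower without F, and Psmb10 and Psmb8 without I. None of these genes passed without A. Each of these fits left a single library in a genotype. The share of all genes called in them is not given here, so they show only that the calls moved.

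The promoters of the genes that passed are shown with that of Psme1, which held an interferon motif, and that of Psmb5, the constitutive counterpart of Psmb8. Sequences and starts are from RefSeq (GRCm38.p6), from 250 bases before to 50 bases after the gene's start, on the strand of the gene. Capitals mark matches to 2 GAAA repeats with any 2 bases between them, or to TTCNNNGAA, in the immunoproteasome genes and to TGACNNNGC or CCAAT in the others, searched on both strands.
Psmb9 (chr17:34187281-34187580, minus strand): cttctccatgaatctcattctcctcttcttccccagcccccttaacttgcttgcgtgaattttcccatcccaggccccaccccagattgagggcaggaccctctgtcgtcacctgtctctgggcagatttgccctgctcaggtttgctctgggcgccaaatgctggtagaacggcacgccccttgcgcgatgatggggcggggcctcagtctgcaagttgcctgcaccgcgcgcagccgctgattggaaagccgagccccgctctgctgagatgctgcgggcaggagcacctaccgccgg
Psmb8 (chr17:34197945-34198244, plus strand): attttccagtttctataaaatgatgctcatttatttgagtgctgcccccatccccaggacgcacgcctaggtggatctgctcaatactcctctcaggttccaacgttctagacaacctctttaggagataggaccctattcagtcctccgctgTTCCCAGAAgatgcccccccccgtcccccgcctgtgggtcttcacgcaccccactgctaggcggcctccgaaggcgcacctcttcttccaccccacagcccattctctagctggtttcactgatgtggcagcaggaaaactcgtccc
Psmb10 (chr8:105938343-105938642, minus strand): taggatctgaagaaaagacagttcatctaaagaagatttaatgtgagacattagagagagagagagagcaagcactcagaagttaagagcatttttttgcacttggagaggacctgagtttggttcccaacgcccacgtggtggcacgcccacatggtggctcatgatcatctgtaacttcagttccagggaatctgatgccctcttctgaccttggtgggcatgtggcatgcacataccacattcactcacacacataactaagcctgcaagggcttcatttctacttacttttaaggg
Psme1 (chr14:55578244-55578543, plus strand): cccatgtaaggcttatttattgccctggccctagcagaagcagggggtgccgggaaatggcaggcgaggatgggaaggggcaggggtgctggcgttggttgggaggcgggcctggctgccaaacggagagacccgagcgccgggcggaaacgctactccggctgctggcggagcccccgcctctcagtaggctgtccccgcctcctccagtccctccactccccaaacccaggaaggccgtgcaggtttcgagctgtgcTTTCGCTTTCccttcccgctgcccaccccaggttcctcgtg
Psma7 (chr2:180042415-180042714, minus strand): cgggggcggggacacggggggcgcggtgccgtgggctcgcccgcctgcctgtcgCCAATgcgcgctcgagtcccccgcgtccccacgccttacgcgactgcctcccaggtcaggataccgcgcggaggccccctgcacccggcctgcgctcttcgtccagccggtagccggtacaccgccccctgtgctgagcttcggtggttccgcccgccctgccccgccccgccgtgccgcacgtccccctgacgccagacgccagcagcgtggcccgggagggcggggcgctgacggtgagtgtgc
Psmb5 (chr14:54617946-54618245, minus strand): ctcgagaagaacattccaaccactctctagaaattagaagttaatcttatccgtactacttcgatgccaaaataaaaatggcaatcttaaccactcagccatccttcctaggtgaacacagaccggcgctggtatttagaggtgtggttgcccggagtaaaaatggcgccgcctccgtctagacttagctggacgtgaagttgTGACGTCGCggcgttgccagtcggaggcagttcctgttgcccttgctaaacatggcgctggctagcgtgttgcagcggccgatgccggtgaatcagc

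RefSeq gave 42 promoters for 39 of the 46 genes, 6 of them for the 5 immunoproteasome genes. The core of the interferon-stimulated response element (2 GAAA repeats with any 2 bases between them) was in 3.44% of all 32851 promoters and in 5 of the 42, those of Psmb3, Psmd4, Psmd9, Psme1 and Psmg4. TTCNNNGAA, the gamma-activated sequence, was in 8.30% of all promoters and in 3 of the 42, those of Psmb8, Psmd2 and Psmg1. In the windows of the immunoproteasome genes these motifs were thus found once each, 10 bases after the RefSeq start in Psme1 and 97 bases before it in Psmb8. The GENCODE M21 annotation starts some genes farther upstream, among them Psmb9 (34187764), Psmb8 (34197721) and Psme1 (55578123). The windows of these genes lie inside the genes as annotated there, and the sequence before those starts was not searched. TGACNNNGC, the core of the antioxidant response element bound by relatives of Nfe2l1, was in 12.4% of all promoters and in 5 of the 42 (Psmb5, Psmb6, Psmc6, Psmd12 and Psmd9). The CCAAT box was in 37.4% of all promoters and in 14 of the 42, among them Psmb9 and Psma7. A match is a description of these letters only.

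In the GENCODE M21 annotation (GRCm38) the 46 genes lie on 16 chromosomes. Psmb9 and Psmb8 are neighbours on chromosome 17, in the major histocompatibility complex, with 9.96 kb between them, and Psme1 and Psme2 lie 5.91 kb apart on chromosome 14. Psmb10 (chromosome 8) and Psma7 (chromosome 2) lie elsewhere.

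In the alpha ring, which forms the gate of the core, 1 of 7 genes passed (Psma7) and 4 of 7 were separated as higher. Psma5 stood at 360.1 (F), 392.4 (I), 388 (A) and 423 CPM (B), with the genotypes overlapping. In the constitutive beta ring 0 of 7 passed, and 6 of 7 were separated as higher. Psmb4, a structural beta subunit, had the smallest p there and stood at 379.7 (F), 397 (I), 438 (A) and 477 CPM (B) (log2 difference 0.19, edgeR adjusted p = 0.139). Psmb1 stood at 586 (F), 597 (I), 641 (A) and 670.3 CPM (B), and Psmb7 at 333 (F), 364 (I), 378 (A) and 407 CPM (B). For these 3 beta genes A and B were above F and I without passing.

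The 6 base ATPases, which unfold substrates, overlapped between genotypes in every case, and 0 passed. Their log2 differences lay between -0.03 and 0.08. Psmc1 stood at 83.8 (F), 104 (I), 87.5 (A) and 102 CPM (B), Psmc4 at 163 (F), 206 (I), 175 (A) and 209.5 CPM (B) and Psmc5 at 158 (F), 197 (I), 187 (A) and 202 CPM (B). For these 3 ATPases library I was above F, and B above A.

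Psmd1, Psmd2 and Psmd4, the other base subunits, include scaffolds and the ubiquitin receptor Psmd4, and 0 of 3 passed. Psmd1 stood at 41.2 (F), 55.9 (I), 36.3 (A) and 42.5 CPM (B), with the lowest log2 difference of all 46 (-0.35, SE 0.14, edgeR adjusted p = 0.220). Psmd4 stood at 171 (F), 196 (I), 177 (A) and 207 CPM (B). Neither was separated by genotype. In the lid, 0 of 8 passed and 3 were separated as higher. Psmd8 stood at 255 (F), 263 (I), 286 (A) and 324 CPM (B) (log2 difference 0.18, edgeR adjusted p = 0.181). Psmd7, the partner of the lid's deubiquitinase Psmd14, stood at 270.2 (F), 319.9 (I), 313 (A) and 365 CPM (B), and Psmd3 at 81.7 (F), 100.5 (I), 82.8 (A) and 100.4 CPM (B).

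Of the chaperones 0 of 3 for the base and 0 of 4 for the core passed. Psmd5 stood at 40.4 (F), 47.2 (I), 39.97 (A) and 44.1 CPM (B) and Psmd9 at 66.3 (F), 68.3 (I), 65.4 (A) and 76.4 CPM (B). Psmg1 stood at 112 (F), 124 (I), 128 (A) and 139 CPM (B) (log2 difference 0.13, edgeR adjusted p = 0.214), Psmg2 at 80.0 (F), 88.7 (I), 84.0 (A) and 89.7 CPM (B) and Psmg3 at 140.1 (F), 142 (I), 152 (A) and 172 CPM (B). Psmg1 and Psmg3 were separated as higher. Of the remaining genes, Psme3, which forms a nuclear activator, stood at 118 (F), 129 (I), 131 (A) and 146 CPM (B), and Psmf1, a proteasome regulator, at 33.2 (F), 31.0 (I), 32.5 (A) and 34.6 CPM (B). None of these 3 remaining genes passed.

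**Figure D2:**
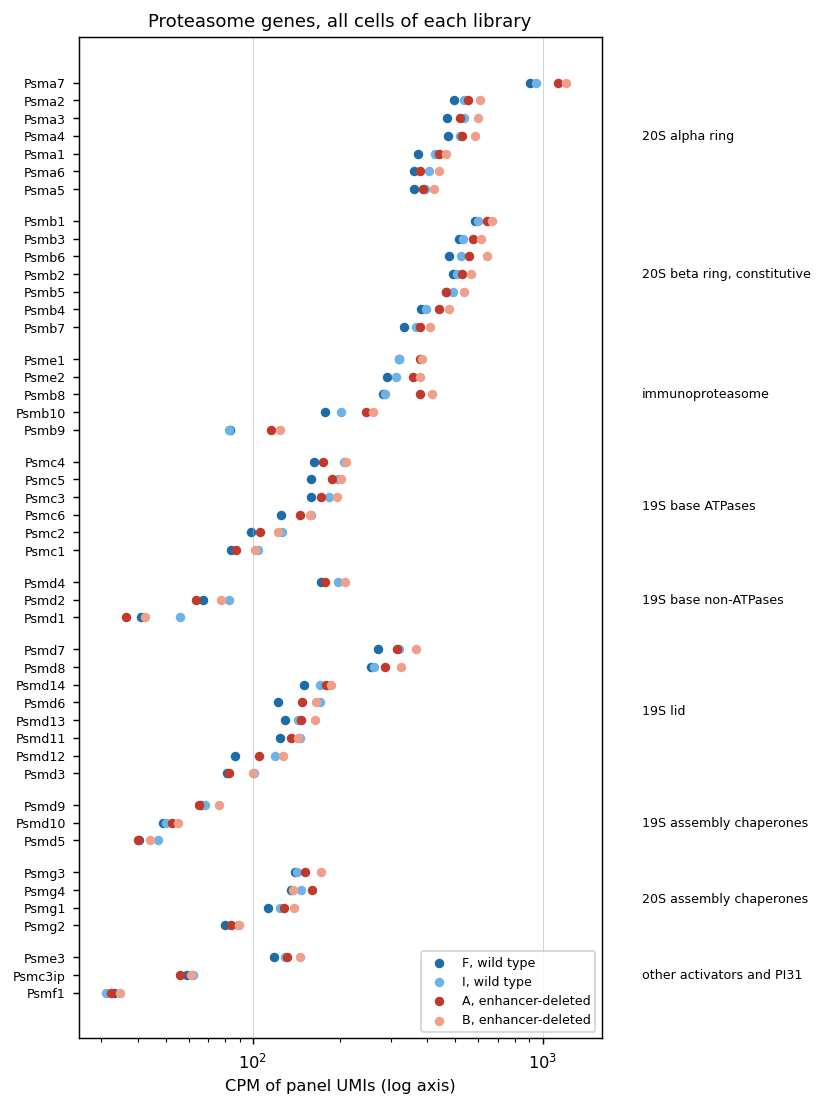
Level of each of the 46 genes (CPM, log axis) in the 4 libraries, grouped by role, with wild-type libraries F and I and enhancer-deleted libraries A and B in separate colours. Points of a gene lie close together relative to the range of levels between genes, and the enhancer-deleted points lie right of the wild-type ones for all 5 immunoproteasome genes.

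Summed over genes, the 41 other genes took 0.979% (F), 1.08% (I), 1.10% (A) and 1.21% (B) of the UMIs. The 5 immunoproteasome genes took 0.115% (F), 0.120% (I), 0.147% (A) and 0.156% (B). The mean share in the enhancer-deleted libraries was 1.12 times that in the wild-type libraries for the 41 genes and 1.29 times for the 5.

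Per cell, the share of UMIs from the 46 genes did not form a single hump. Its median was 1.06% in F, 1.22% in I, 1.27% in A and 1.39% in B, and the cells between the 10th and the 90th percentile spanned 0.548% to 1.48% in F, 0.518% to 1.56% in I, 0.560% to 1.61% in A and 0.666% to 1.74% in B. In each library a smaller group of cells lay below 0.9% and a larger one above 1.1%. A median cell held 123, 203, 85 and 90 UMIs of these genes in F, I, A and B, so the width of either group includes counting error.

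**Figure D3:**
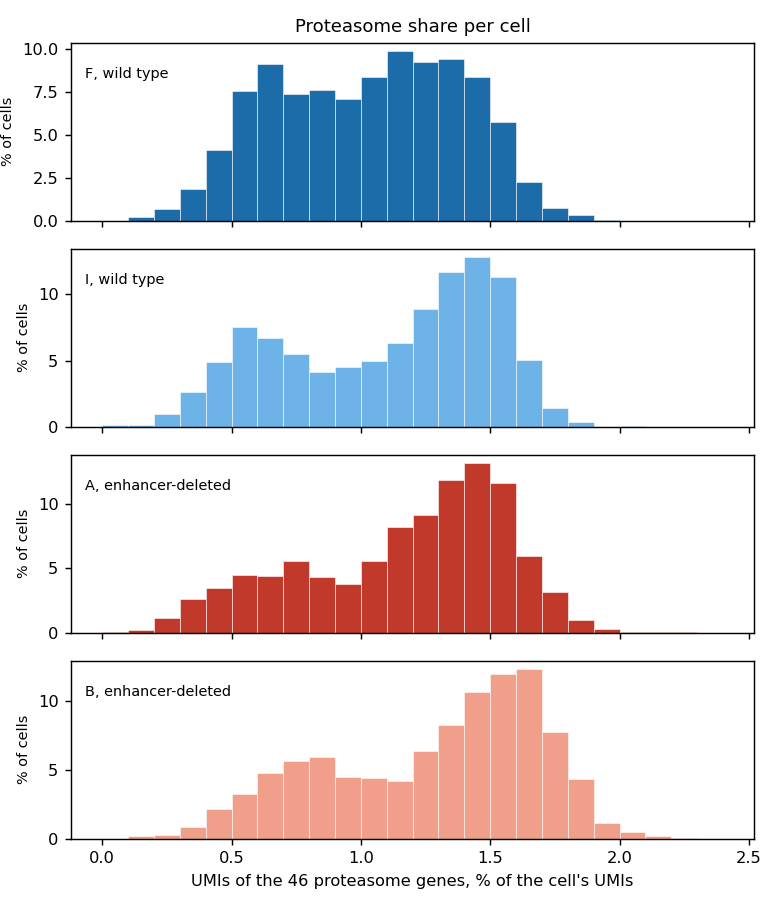
Percent of the cells of a library (vertical axis) by the share of their UMIs that came from the 46 proteasome genes (horizontal axis, percent), 1 panel per library. Every library has a main hump above 1.1% and a smaller one below 0.9%, and the main hump of B lies farthest right.

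The low group was not one cell type. Each of the 3 larger named classes held 1 cluster with a low share of proteasome UMIs and 1 or 2 with a high share, although the 46 genes were left out of the clustering. In HSPC-like cells (markers of stem and multipotent progenitor cells such as Hlf, Mycn and Flt3), the share was 0.624%, 0.538%, 0.574% and 0.6997% in cluster 11 and 1.30%, 1.37%, 1.44% and 1.56% in cluster 0, in F, I, A and B. In monocyte-like cells (Csf1r, Irf8, Fcgr1) it was 0.684%, 0.636%, 0.618% and 0.772% in cluster 10 and 1.44%, 1.54%, 1.38% and 1.55% in cluster 8. In neutrophil-like cells (Elane, Mpo, Prtn3) it was 0.647%, 0.662%, 0.811% and 0.853% in cluster 17 and 1.13%, 1.26%, 1.36% and 1.47% in cluster 15, although cluster 17 held only 24 and 14 cells of A and B. The leading genes of cluster 17 included Camp, S100a9 and Lcn2, and those of cluster 15 Elane, Ms4a3 and Ctsg, so this pair also differed in neutrophil genes. In each class, every library of the low cluster was below every library of the high one. The clusters were put in this order by that share, so these values are a description with no test.

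Since the clusters were ordered by the summed share of these genes, the counts below describe how the difference was spread over the genes, and nothing is read from the all-gene shares beside them. Between clusters 11 and 0, 39 of the 46 genes were lower in every library of cluster 11, against 33.1% of all genes, and the median level was 2.38-fold lower against 1.06-fold over all genes. Between clusters 10 and 8, 42 were lower, against 33.8% of all genes, by a median of 2.26-fold. Between clusters 17 and 15, 30 were lower, against 20.8%, by a median of 1.74-fold. In none of these pairs was any of the 46 higher in every library. Against cluster 2, 35 were lower in cluster 11 (29.8% of all genes), and 9 were lower in cluster 2 than in cluster 0 (11.5%). Against cluster 14, 35 were lower in cluster 10 (27.8%), and 6 were lower in cluster 14 than in cluster 8 (8.83%).

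Psmd6, a lid subunit, had the largest ratio in each of these 3 pairs, at 4.88-fold, 4.55-fold and 2.85-fold. In cluster 11 it stood at 52.8 (F), 31.1 (I), 33.1 (A) and 41.1 CPM (B), and in cluster 0 at 165 (F), 214 (I), 185 (A) and 207 CPM (B). Psmc5, an ATPase, was 3.91-fold, 3.78-fold and 2.39-fold lower. Psma7 stood at 500.3 (F), 409 (I), 451 (A) and 580.2 CPM (B) in cluster 11 and at 1048 (F), 1011 (I), 1254 (A) and 1323 CPM (B) in cluster 0. Psmb8 stood at 210.4 (F), 134 (I), 180.2 (A) and 219 CPM (B) in cluster 11 and at 429.9 (F), 393 (I), 446 (A) and 468 CPM (B) in cluster 0. The immunoproteasome genes had a median ratio of 2.33-fold in HSPC-like, 2.00-fold in monocyte-like and 1.87-fold in neutrophil-like cells. The alpha ring had a median of 2.57-fold, 2.39-fold and 1.82-fold, with all 7 genes lower in each pair, and so had the constitutive beta ring, with medians of 2.34-fold, 2.16-fold and 1.60-fold.

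A few genes stood outside. Psmd1 was at 55.8 (F), 47.0 (I), 50.7 (A) and 51.7 CPM (B) in cluster 11 and at 39.3 (F), 63.8 (I), 33.2 (A) and 44.4 CPM (B) in cluster 0, and its ratios in the 3 pairs were 0.88, 1.08 and 0.76. Psmd1, Psmd9, Psmg3 and Psmg4 were separated in none of the 3 pairs. Over 53 sums of a library and a cluster (17 clusters, each sum with its own depth and cell makeup), log2(CPM + 1) of each gene was correlated with the sum of the other 45 as a description. Pearson's r had a median of 0.91 and was above 0.8 for 32 genes. It was below 0.5 for 7, namely Psmd1 (-0.20), Psmd2 (0.17), Psmd9 (0.22), Psmc3ip (0.28), Psmg4 (0.32), Psme3 (0.40) and Psmg3 (0.48). Psmb9 (0.52) and Psmb8 (0.59) were the lowest of the immunoproteasome genes, and Psmb10, Psme1 and Psme2 were at 0.84, 0.90 and 0.91. These correlations share library totals and cell quality between points.

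Measures of cell quality moved with the proteasome share. Mitochondrial genes (10 measured) took 4.46% to 4.82% of UMIs in cluster 11 and 2.77% to 2.97% in cluster 0, 4.24% to 4.85% in cluster 10 and 2.61% to 3.23% in cluster 8, and 4.19% to 4.85% in cluster 17 and 2.79% to 2.99% in cluster 15. The low clusters also had fewer UMIs per cell, for example a median of 9225 in cluster 11 and 12282.5 in cluster 0 of library F. Over the same 53 sums, the proteasome share had r = -0.89 with the mitochondrial share, -0.75 with the share of 93 ribosomal protein genes, 0.33 with the median UMI count, 0.44 with 17 S phase genes and 0.04 with 20 G2/M genes. The part of cell quality in the proteasome share was not tested.

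**Figure D4:**
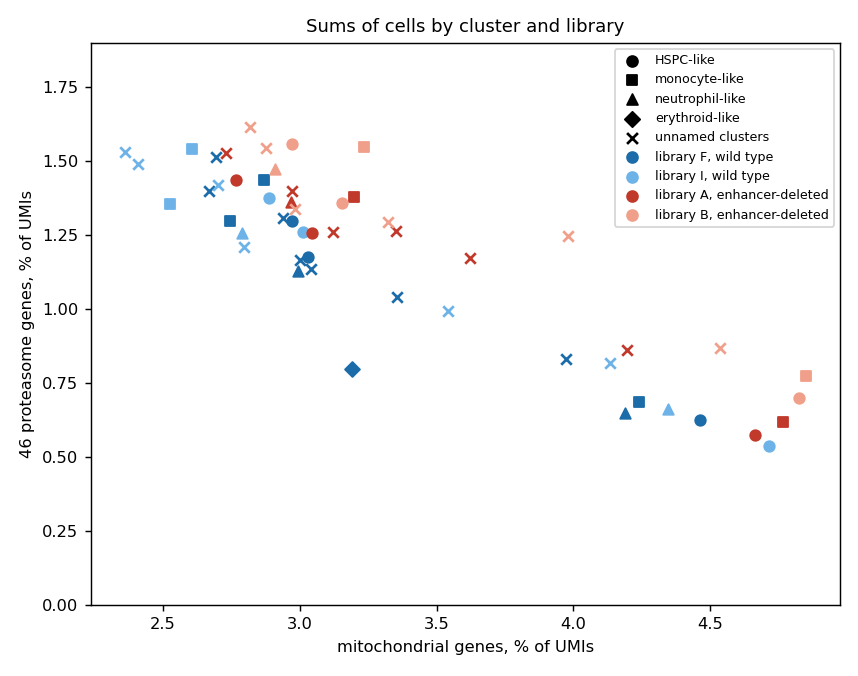
Share of UMIs from proteasome genes against the share from mitochondrial genes (both percent), 1 point per library and cluster with at least 50 cells. Points fall from upper left to lower right, and clusters 9, 10, 11 and 17 lie at the lower right, with under 0.9% proteasome UMIs and 3.97% to 4.85% mitochondrial UMIs. The erythroid-like cells of F lie apart at 0.796% and 3.19%.

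The partner genes were set against the same cluster pairs. Of 7 measured partners without a Psm name, 4, 4 and 2 were lower in every library of the low cluster in the 3 pairs, among them Txnl1 and Uchl5, a deubiquitinase of the regulatory particle, in all 3. Of 21 measured genes of ubiquitin supply and delivery, 8, 7 and 5 were lower and 3, 2 and 0 were higher. Of all genes 33.1%, 33.8% and 20.8% were lower and 22.4%, 15.1% and 6.18% were higher in these pairs, so the counts of the ubiquitin list lay near those of all genes and are no result about that list. Ubb, a ubiquitin gene, was lower in all 3 pairs, and Uba1, the main ubiquitin-activating enzyme, was higher in the first 2.

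Between classes, the monocyte-like cells had more of many proteasome transcripts than the HSPC-like cells, more so in the wild-type libraries. The 41 genes outside the immunoproteasome took 1.11% (F), 1.23% (I), 0.993% (A) and 1.10% (B) of UMIs in monocyte-like cells. In HSPC-like cells they took 0.942% (F), 0.943% (I), 1.07% (A) and 1.16% (B), so their summed share was lower in the monocyte-like cells of A and B. With the library as a factor, 27 of the 46 genes were higher and 7 lower, where 31.1% of all genes were higher and 31.5% lower. The 5 with the smallest p among the higher genes were the ATPases Psmc3 (1.31-fold) and Psmc1 (1.35-fold), Psmb4 (1.22-fold), Psmb10 (1.24-fold) and Psma7 (1.22-fold). Psmc3 stood at 132 (F), 140.3 (I), 151 (A) and 180.3 CPM (B) in HSPC-like cells and at 186 (F), 211 (I), 178 (A) and 196 CPM (B) in monocyte-like cells (log2 difference 0.39, SE 0.05, edgeR adjusted p = 1.37e-07). In each library it was higher in monocyte-like cells.

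Lower in monocyte-like cells were the core chaperones Psmg1 (1.27-fold), Psmg3 (1.23-fold) and Psmg2 (1.23-fold), followed by Psmd7 (1.15-fold) and Psme3 (1.12-fold). Psmg1 stood at 124 (F), 113 (I), 144 (A) and 139 CPM (B) in HSPC-like cells and at 106 (F), 109 (I), 85.2 (A) and 99.4 CPM (B) in monocyte-like cells. Of the immunoproteasome genes 4 of 5 were higher and Psmb8 did not pass (log2 difference 0.13, edgeR adjusted p = 0.0875). Psmb9 stood at 87.4 (F), 87.8 (I), 112 (A) and 121 CPM (B) in HSPC-like cells and at 115 (F), 113 (I), 139.7 (A) and 157 CPM (B) in monocyte-like cells (log2 difference 0.39, SE 0.08, edgeR adjusted p = 6.85e-05).

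Which clusters hold a class bears on these counts. Cluster 11, with the low share, held 35.6%, 43.1%, 28.9% and 32.6% of the HSPC-like cells of F, I, A and B, and was the largest HSPC-like cluster in I, whereas cluster 0 was the largest in the others. Cluster 10 held 26.2%, 17.9%, 39.3% and 45.7% of the monocyte-like cells. Of the monocyte-like clusters, only cluster 8 had at least 50 cells in every library and was used for contrasts between single clusters. Cluster 10 held 37 cells of I, and cluster 14 held 43 of A and 12 of B, so both were left out. When cluster 8 was set against each of clusters 0, 2 and 11, 12 of the 46 genes were higher in all 3 contrasts. Among them were Psma7, Psmb4, Psmb9, Psmb10, Psmc1, Psmc3 and Psme2, and Psmd9 was lower in all 3. Of the 3550 genes tested in all 3 contrasts, 16.5% were higher and 16.3% lower in each. In the wild-type libraries alone 33 genes were higher and 1 lower (31.2% and 30.6% of all genes). In the enhancer-deleted libraries alone 12 were higher and 9 lower (30.4% and 29.4%). With all libraries at a clustering resolution of 0.6, 12 were higher and 8 lower, for which no share of all genes is given here.

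Neutrophil-like cells differed from HSPC-like cells in the immunoproteasome. Psmb8 stood at 348 (F), 290.2 (I), 377 (A) and 395 CPM (B) in HSPC-like cells and at 165 (F), 182 (I), 220.2 (A) and 301 CPM (B) in neutrophil-like cells (log2 difference -0.73, SE 0.07, edgeR adjusted p = 6.34e-11). Psmb9 stood at 60.2 (F), 62.4 (I), 77.8 (A) and 91.3 CPM (B) in neutrophil-like cells (log2 difference -0.47, SE 0.09, edgeR adjusted p = 2.16e-05). Psme1 and Psme2 were lower too, at log2 differences of -0.19 and -0.15 (edgeR adjusted p = 0.00519 and 0.0216), and Psmb10 did not pass (-0.07, adjusted p = 0.351). Psmb8 was lower in every library, and UMIs of Psmb8 per UMI of Psmb5 came to 0.360, 0.363, 0.416 and 0.548 in neutrophil-like cells of F, I, A and B against 0.841, 0.720, 0.829 and 0.764 in HSPC-like cells.

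In all, 16 genes were higher and 8 lower in neutrophil-like cells, where 31.9% of all genes were higher and 32% lower. Higher with the smallest p were Psmc3 (1.47-fold), Psmd2 (1.44-fold), Psmb4 (1.18-fold), Psmd4 (1.18-fold) and Psmb5 (1.19-fold). Lower with the smallest p, after Psmb8 and Psmb9, were Psmd8 (1.18-fold), Psmg4 (1.29-fold) and Psmg3 (1.25-fold). The split between higher and lower depended on the clustering, with 4 higher and 13 lower at a resolution of 0.6, and 6 and 15 at 1.4. It depended on the scaling as well, with 6 higher and 12 lower when library totals replaced the TMM factors. The shares of all genes under these alternatives are not given here, so the splits show only that the calls moved. With library totals Psmb8 (-0.80) and Psmb9 (-0.57) were still lower and Psmc3, Psmd2, Psmb4, Psmd4 and Psmb5 still higher. Psmc1, Psmc3, Psmc6 and Psmd2 were higher and Psmg4 was lower when cluster 15 was set against each of clusters 0, 2 and 11, where 15.9% and 15.5% of the 3542 genes tested in all 3 were. Psmb8 and Psmb9 were lower in cluster 15 than in clusters 0 and 2 but higher than in cluster 11. Cluster 17, with the low share, held 41.6%, 31.8%, 25.8% and 17.5% of the neutrophil-like cells of F, I, A and B. It had only 24 and 14 cells of A and B, and was left out of the contrasts between single clusters.

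**Figure D5:**
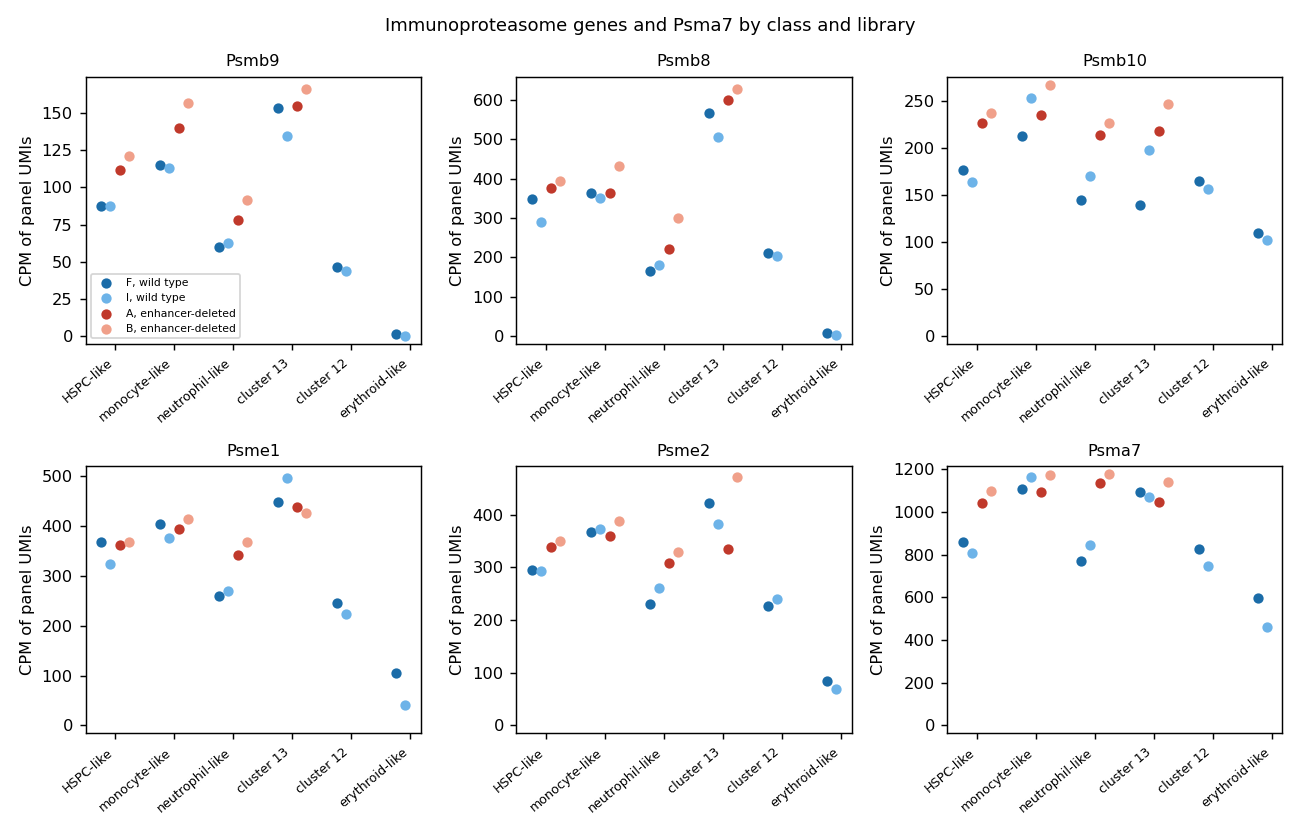
Level (CPM, linear axes from 0) of the 5 immunoproteasome genes and Psma7 in 6 groups of cells, 1 point per library. Psmb8 and Psmb9 lie near 0 in the erythroid-like cells of F and I and are highest in cluster 13 in each library, while Psma7 is well above 0 in every group.

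The lowest immunoproteasome levels were in the erythroid-like cells, which could be read in the 2 wild-type libraries (51 cells of F and 37 of I, with 3 each in A and B). Psmb8 had 6 UMIs in these 88 cells, a level of 6.29 CPM (exact 95% Poisson interval 2.31 to 13.7) against 319 CPM in the HSPC-like cells of the same libraries, a ratio of 50.8 (23.3 to 138). Psmb9 had 1 UMI against 87.6 CPM in HSPC-like cells, a ratio of 83.5 (14.99 to 3300). Psme1 and Psme2 had 75 UMIs each, 78.6 CPM against 346 and 294 CPM. Psmb10 was at 107 against 171 CPM. These intervals cover counting error only.

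Psmb5, the constitutive counterpart of Psmb8, stood in the erythroid-like cells at 277 CPM against 409 CPM in HSPC-like cells. UMIs of Psmb8 per UMI of Psmb5 came to 0.0329 in F and 0.00893 in I. The tests of this contrast turned on the scaling. With TMM factors the median log2 difference over all genes was -0.03, and with library totals, the scale of the CPM values, it was -0.54. In edgeR with TMM, 12 of the 46 genes were higher and 8 lower in erythroid-like cells, against 25.2% and 27% of all genes. With library totals 3 were higher and 27 lower. The share of all genes called with library totals is not given here, so these counts are no result about the 46 genes.

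Psmb8, Psmb9, Psme1, Psme2 and Psma4 were lower under both scalings. Psme1 was at a log2 difference of -1.66 with TMM and -2.16 with library totals, and Psme2 at -1.46 and -1.98. Psmb10 (-0.24) and Psmb5 (edgeR adjusted p = 0.343) did not pass with TMM, and with library totals both passed as lower, at -0.76 (edgeR adjusted p = 6.75e-05) and -0.67 (adjusted p = 3.31e-05). Higher under both were Psmd1 (log2 difference 0.76 with library totals) and the base chaperones Psmd9 (0.56) and Psmd10 (0.48), which with TMM stood at 2.44-fold, 2.10-fold and 2.00-fold. Psmc3 (1.60-fold) and Psmd4 (1.52-fold) were higher with TMM only, with edgeR adjusted p of 0.345 and 0.590 on library totals. This contrast used classes with at least 30 cells and was added after the data were seen.

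Cluster 12, which also was nearly all wild-type, had 7 genes lower and 0 higher (12.9% of all genes were lower). These included Psmb9 (log2 difference -1.03, SE 0.13), Psmb8 (-0.66, SE 0.09), Psme1 (-0.53, SE 0.07) and Psme2 (-0.37, SE 0.07), all with edgeR adjusted p of 0.000140 or below. Psmb9 was at 46.8 (F) and 43.8 CPM (I) there, and at 87.4 (F) and 87.8 CPM (I) in HSPC-like cells. Cluster 13 was at the other end. Its leading genes were Ebf1 (a lymphoid regulator gene), Mzb1, Cox6a2, Tmem108, Ccl4, Tsc22d1, Flt3, Ccl3, Il12a and Wfdc17. It carried 6 of the HSPC markers and the dendritic cell markers Flt3 and Tcf4, and was left unnamed. Psmb8 stood there at 567 (F), 506 (I), 600.0 (A) and 627 CPM (B) (20 to 73 cells per library). It was 1.82-fold above HSPC-like cells (edgeR adjusted p = 8.77e-08), and Psmb9 was 1.61-fold above (edgeR adjusted p = 0.00243). This contrast rested on libraries A and B alone, since F and I held only 40 and 20 cells of the cluster. In that cluster 8 genes were higher and 1, Psmd7, was lower (14.9% and 11.5% of all genes). With library totals, which moved the median of all genes from 0.00 to -0.13, 4 were higher, Psmb8 and Psmb9 among them, and 4 lower. UMIs of Psmb8 per UMI of Psmb5 came to 1.10, 0.966, 1.71 and 1.42 in F, I, A and B. In A and B, and in F, Psmb8 thus had more UMIs than Psmb5 in cluster 13.

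Of the other unnamed clusters, 3 and 6 had 35 genes each above HSPC-like cells, against 27.1% and 27.6% of all genes, with 1 lower in cluster 3 (Psmc3ip, against 28%) and none lower in cluster 6. Cluster 5, with the mast cell genes Cpa3 and Hdc, had 29 higher (18.6%) and none lower. Its contrast rested on libraries F and I, since A and B held only 13 and 9 of its cells. Cluster 6, led by the cell cycle gene Ccne1, had Psmd6 at 1.65-fold and Psmc6 at 1.54-fold. Cluster 9, led by Mogs and with a proteasome share of 0.817% to 0.868%, had 36 lower (33.5%) and 4 higher (31.3%). The 4 were Psmd2, Psmd1, Psmg4 and Psme3, and Psmd8 was 1.92-fold lower. Cluster 7 had 13 higher and 14 lower (22.7% and 25.5%). Cluster 1, the shallowest, had 10 higher and 13 lower (18% and 20.9%) without library I, which held 9 of its cells. In both clusters the lower genes were led by regulatory particle subunits, such as Psmc2 (1.71-fold in cluster 7 and 1.82-fold in cluster 1).

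Within a class, no proteasome gene passed between the genotypes. In HSPC-like cells 0 of 46 passed in edgeR and 0 in DESeq2's Wald test, with 18 at an unadjusted edgeR p under 0.05, where 18.4% of all genes were, and 0.869% of all genes called. In monocyte-like cells the counts were 0 and 0, with 11 at an unadjusted p under 0.05 (20.2% of all genes) and 1.18% of all genes called. In neutrophil-like cells they were 0 and 0, with 19 at an unadjusted p under 0.05 (17.98% of all genes) and 2.05% called. Clusters 3, 6, 7 and 9 had 0 in edgeR, with 1, 4, 2 and 1 at an unadjusted p under 0.05 (7.86%, 8.93%, 8.11% and 8.63% of all genes) and 0%, 0.141%, 0.113% and 0.113% of all genes called.

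Psmb9 had similar differences in all 3 classes. They were 0.35 on the log2 scale in HSPC-like cells (SE 0.06, edgeR adjusted p = 0.0638), 0.43 in monocyte-like cells (SE 0.08, adjusted p = 0.0632) and 0.36 in neutrophil-like cells (SE 0.14, adjusted p = 0.209). In neutrophil-like cells it stood at 60.2 (F), 62.4 (I), 77.8 (A) and 91.3 CPM (B), from 93 and 80 cells of A and B. The enhancer-deleted libraries were above the wild-type ones in each class. Psmb10 was at log2 differences of 0.38, 0.16 and 0.39 (edgeR adjusted p = 0.0797, 0.431 and 0.132), and Psmb8 at 0.21, 0.20 and 0.48 (adjusted p = 0.324, 0.279 and 0.111). Which genes passed depended on single libraries. Without A, Psmc3, Psmb10, Psmd7 and Psmb9 passed as higher and Psmg4 as lower in HSPC-like cells, and without B, Psma7, Psmb10 and Psmb9 passed there. In monocyte-like cells Psmb9 passed without A, and without F it passed as higher and Psmd12 as lower. In neutrophil-like cells Psmb8 and Psmb10 were among the genes that passed without I. Each of these fits left a single library in a genotype. The share of all genes called in them is not given here, so they show only that the calls moved.

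The genotype difference itself differed between monocyte-like and HSPC-like cells for 27 of the 46 genes, all in 1 direction. Relative to wild type, these genes were lower in the monocyte-like than in the HSPC-like cells of the enhancer-deleted libraries (edgeR interaction), where 11.1% of all genes were called in that direction. No immunoproteasome gene was among them. With library totals, which moved the median interaction over all genes from 0.02 to -0.11, 33 genes were called, all as lower, and Psmb10 was 1 of them. The share of all genes called in that fit is not given here. The 27 were all 7 alpha ring genes, 5 of the constitutive beta ring, 5 ATPases, 6 lid subunits, the base chaperone Psmd5, the core chaperones Psmg1 and Psmg3, and Psme3.

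In the lid, Psmd7 had the smallest p, with an interaction of -0.56 on the log2 scale (SE 0.08, edgeR adjusted p = 1.40e-08). In HSPC-like cells it stood at 264 (F), 288 (I), 338 (A) and 383 CPM (B), and in monocyte-like cells at 276 (F), 316 (I), 225 (A) and 257 CPM (B). The enhancer-deleted libraries were above the wild-type ones in HSPC-like cells and below them in monocyte-like cells. In monocyte-like cells Psmd12 stood at 108 (F), 155 (I), 94.5 (A) and 112 CPM (B), Psmd14 at 182 (F), 211 (I), 165 (A) and 168 CPM (B), Psmd3 at 90.7 (F), 119 (I), 70.3 (A) and 92.6 CPM (B), Psmd11 at 136 (F), 166 (I), 116 (A) and 122 CPM (B) and Psmd6 at 151 (F), 219 (I), 135 (A) and 160.1 CPM (B). In HSPC-like cells Psmd12 stood at 84.2 (F), 100.9 (I), 104 (A) and 115 CPM (B), Psmd14 at 144 (F), 142 (I), 178 (A) and 171 CPM (B), Psmd3 at 73.0 (F), 84.7 (I), 83.7 (A) and 97.7 CPM (B), Psmd11 at 124 (F), 125 (I), 132 (A) and 141 CPM (B) and Psmd6 at 118 (F), 137 (I), 132 (A) and 149 CPM (B). In monocyte-like cells the highest of the 4 libraries was I for each of these lid genes.

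In the core, Psmb5 had an interaction of -0.42 (SE 0.08, edgeR adjusted p = 7.05e-06). Psmb5 stood at 415 (F), 403 (I), 454 (A) and 517 CPM (B) in HSPC-like cells and at 492 (F), 539 (I), 389 (A) and 455 CPM (B) in monocyte-like cells. Psma6 had -0.41 (SE 0.08, edgeR adjusted p = 2.13e-05), and stood at 332 (F), 347 (I), 375 (A) and 426 CPM (B) in HSPC-like and at 374 (F), 436 (I), 298 (A) and 364 CPM (B) in monocyte-like cells. Here both enhancer-deleted libraries were again higher in the first class and both lower in the second. Psma3 stood at 471 (F), 469.9 (I), 526 (A) and 552 CPM (B) in HSPC-like and at 534 (F), 624 (I), 458 (A) and 504 CPM (B) in monocyte-like cells. Psma2 stood at 476 (F), 464 (I), 558 (A) and 589.8 CPM (B) and at 560.3 (F), 616 (I), 493 (A) and 565 CPM (B), and Psma4 at 430.4 (F), 446 (I), 498 (A) and 545 CPM (B) and at 562 (F), 585 (I), 482 (A) and 536 CPM (B), in the same order. For these 3 the genotypes were separated in HSPC-like cells, with A and B higher. Psma1 stood at 371 (F), 379 (I), 416 (A) and 436 CPM (B) and at 441 (F), 523 (I), 423 (A) and 438 CPM (B), Psma5 at 335 (F), 343 (I), 359 (A) and 396 CPM (B) and at 399.7 (F), 449 (I), 362 (A) and 383 CPM (B), and Psma7 at 858 (F), 808 (I), 1043 (A) and 1100.0 CPM (B) and at 1107 (F), 1163 (I), 1096 (A) and 1172 CPM (B). Psma7 hardly differed between the genotypes in monocyte-like cells, while A and B were higher in HSPC-like cells.

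Of the beta ring genes, Psmb3 stood at 468 (F), 429 (I), 539 (A) and 567 CPM (B) in HSPC-like cells and at 579 (F), 598 (I), 514 (A) and 552 CPM (B) in monocyte-like cells, and Psmb4 at 335 (F), 333 (I), 411 (A) and 453 CPM (B) and at 443 (F), 475 (I), 430.2 (A) and 467 CPM (B). Psmb7 stood at 339 (F), 321 (I), 373 (A) and 399 CPM (B) and at 381 (F), 432 (I), 361 (A) and 365 CPM (B), and Psmb2 at 439.8 (F), 438 (I), 493 (A) and 528 CPM (B) and at 562 (F), 578 (I), 483 (A) and 559 CPM (B), in the same order. In HSPC-like cells A and B were above F and I for all of these 4. Of the ATPases, Psmc5 had an interaction of -0.48 (SE 0.09, edgeR adjusted p = 1.66e-05) and stood at 142 (F), 167 (I), 176 (A) and 193 CPM (B) in HSPC-like and at 202 (F), 248 (I), 166 (A) and 188 CPM (B) in monocyte-like cells. Psmc2 had -0.52 (SE 0.11, edgeR adjusted p = 7.33e-05) and stood at 88.9 (F), 97.1 (I), 105 (A) and 119 CPM (B) and at 122 (F), 163 (I), 98.1 (A) and 121 CPM (B). For both ATPases the levels of I in monocyte-like cells stood above the other libraries. Psmc4 stood at 160.5 (F), 176 (I), 180.0 (A) and 201 CPM (B) and at 199 (F), 249.6 (I), 158 (A) and 193 CPM (B), Psmc6 at 116 (F), 115 (I), 141 (A) and 143 CPM (B) and at 146 (F), 209 (I), 141 (A) and 153 CPM (B), and Psmc3 at the levels given with the class contrast.

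Of the chaperones, Psmd5 stood at 35.3 (F), 36.4 (I), 41.2 (A) and 51.8 CPM (B) in HSPC-like and at 46.1 (F), 52.9 (I), 34.7 (A) and 35.4 CPM (B) in monocyte-like cells, and had the largest interaction (-0.75, SE 0.17, edgeR adjusted p = 0.000284). Psmg3 stood at 148 (F), 135 (I), 164 (A) and 177 CPM (B) and at 129.5 (F), 135 (I), 105 (A) and 129 CPM (B), and Psmg1 at the levels given above. Psme3 stood at 129 (F), 119 (I), 139 (A) and 151 CPM (B) and at 124 (F), 134 (I), 103 (A) and 107 CPM (B). A and B were above F and I in HSPC-like cells for each of these 4 genes and below them in monocyte-like cells.

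The shares of the low clusters moved with this interaction. Cluster 11 was a smaller part of the HSPC-like cells, and cluster 10 a larger part of the monocyte-like cells, in A and B than in F and I, at the percentages given above. Cluster 14, which did not have a low share, held 28.3%, 29.5%, 8.25% and 2.38% of the monocyte-like cells of F, I, A and B. Between single clusters the counts were much smaller. For cluster 8 against cluster 0, 4 genes were called lower (Psmd5, Psmd7, Psmc6 and Psme3) and 1 higher (Psme1), where 12.3% of all genes were called. Against cluster 2, Psme3 alone was called (6.27% of all genes), and against cluster 11, Psme1 alone, as higher (1.79%). Psmd7 was at -0.51 against cluster 0 (edgeR adjusted p = 3.40e-06), at -0.24 against cluster 2 (adjusted p = 0.149) and at -0.17 against cluster 11 (adjusted p = 0.713). With a library left out, every gene called in the interaction of the classes was called as lower, and Psmd7 was still called without library B. Fewer genes were called without B than without F. Each of these fits left a single library in a genotype. The share of all genes called in them is not given here, so a change in the proteasome genes cannot be told from a change in power.

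In neutrophil-like against HSPC-like cells, the interaction was called for 0 of the 46 genes in edgeR, with 4 at an unadjusted p under 0.05 (12.9% of all genes) and 2.67% of all genes called. Without library I it was called for Psme1, Psmb8 and Psmg2, as higher. That fit left F as the only wild-type library, and the share of all genes called in it is not given here. Cluster 3 gave 2 (Psmd7 and Psmg3, 3.21% of all genes lower), cluster 6 gave 2 (Psmd5 and Psmd7, 0.642%), cluster 9 gave 2 (Psma7 and Psmd7, 0.613%), all lower, and cluster 7 gave 0, with 5 at an unadjusted p under 0.05 (7.53% of all genes were, and 0.419% were called). With library totals cluster 3 gave 6 and cluster 6 gave 7, all lower. Psmd7 was thus called in 3 of these 4 clusters, which share the HSPC-like cells as the reference. It stood at 342 (F), 402 (I), 329.6 (A) and 401 CPM (B) in cluster 3, at 445 (F), 477 (I), 466 (A) and 476 CPM (B) in cluster 6 and at 208 (F), 204 (I), 180.1 (A) and 200.3 CPM (B) in cluster 9. The genotypes overlapped in clusters 3 and 6, and in cluster 9 both enhancer-deleted libraries were lower.

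Genes that work with the proteasome were read from 3 lists. Of the partners without a Psm name 7 of 19 were measured, of ubiquitin supply and delivery 21 of 29, and of class I antigen presentation 7 of 12. Over all cells 0 genes of any list passed in edgeR, with 1, 4 and 3 at an unadjusted p under 0.05, where 24.5% of all genes were. Pomp, the chaperone of core maturation, stood at 632 (F), 612 (I), 709.5 (A) and 756 CPM (B) (log2 difference 0.19, edgeR adjusted p = 0.158). Shfm1, a small lid subunit, stood at 824 (F), 837 (I), 764 (A) and 578 CPM (B), and Zfand5, a proteasome-activating zinc finger protein, at 44.0 (F), 37.0 (I), 33.3 (A) and 39.1 CPM (B). Pomp had the order of libraries of the immunoproteasome genes, and Shfm1 the opposite one.

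Of the ubiquitin list, Ube2c, a conjugating enzyme of mitosis, stood at 365 (F), 368 (I), 327 (A) and 331 CPM (B) (log2 difference -0.21, edgeR adjusted p = 0.133). Both enhancer-deleted libraries were lower without passing. Of the antigen presentation genes, Calr, a chaperone of peptide loading, stood at 1184 (F), 1609 (I), 895 (A) and 1003 CPM (B) (log2 difference -0.61, edgeR adjusted p = 0.0554), Pdia3, its partner, at 223 (F), 298 (I), 189 (A) and 206 CPM (B), and B2m, the light chain of class I molecules, at 669.7 (F), 654 (I), 758 (A) and 779.8 CPM (B) (log2 difference 0.17, adjusted p = 0.195). Class I heavy chain H2-K1 stood at 64.5 (F), 76.0 (I), 72.0 (A) and 79.1 CPM (B). B2m had the order of the immunoproteasome genes, whereas Calr and Pdia3 had the opposite one and H2-K1 overlapped.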

How the data were processed

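The deposited table holds whole-number UMI counts of 3624 genes in 9960 cells, as the authors deposited it with a gene list and a file that gives each cell's library letter and genotype. Per the submitters' processing notes, the mm10 build was used, with Cell Ranger (version 2.0.2) and Seurat (version 2.3.4). How genes and cells were chosen, and whether doublets were removed, is not given in the sources used here, and no doublet caller was run. Library letters could not be tied to numbered samples.

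UMIs were summed per library, or per library and class, and tested with edgeR 4.0.16 (quasi-likelihood, TMM scaling, filterByExpr) in R 4.3.3 with Benjamini-Hochberg adjustment over all genes tested and a threshold of 0.05. Contrasts between classes had the library as a factor and used sums of a library and class with at least 50 cells. The difference of the genotype effect between classes was an interaction term. DESeq2 1.42.0 was the other tool. The scripts were tested on simulated data. CPM values are of the panel's UMIs.

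Cells were scaled to 10000 counts and clustered with scanpy 1.11.5 (Leiden, python-igraph 0.11.9, 1000 variable genes, 30 principal components, 15 neighbours, resolution 1.0), without the 46 proteasome genes. To be named, a cluster needed at least 3 markers of a type in at least 10% of its cells and 2-fold above the other cells. At least 1 marker of the type had to be among its 10 leading genes. Among the types with 3 such markers, that type also needed the most of them and the highest fraction of its measured markers. It needed more markers among the leading genes than any other type. Cluster pairs used libraries with at least 10 cells in both.

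Genes named are the immunoproteasome genes, each gene past the threshold within a class, over all cells or in an interaction, the highest, the lowest and the smallest-p gene of each role, the 5 genes with the smallest p in each direction of a class contrast, and up to 3 genes of each partner list. Some genes that this rule names are not reported here. Psmd6, Psmc5, Psma7, Psmb8 and Psmd1 in the cluster pairs, the partner and ubiquitin genes named there, H2-K1, and the 6 promoters were chosen after their values were seen. The members, lists and rules were chosen with earlier results of these data known. Fold changes between classes are relative to the TMM factors, and library totals for these contrasts were added after the data were seen. Alternatives covered the scaling, the filter, the tool, the depth, the class mix, the clustering and each library left out. Those with an equal number of cells drew 1938 cells per library, and those thinned kept 4346 UMIs per cell.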

Additional observations from a re-analysis of the deposited data

Results flagged for a closer look

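The genotype effect of 27 proteasome genes differed between monocyte-like and HSPC-like cells by the interaction test, and in all 27 it was lower in the monocyte-like cells. Psmd7 had the smallest p, with a log2 difference of -0.56 between the 2 effects (SE 0.08, edgeR adjusted p = 1.40e-08). Over the alternatives its adjusted p ranged from 6.89e-12 to 0.713. Clusters with a low proteasome share held different percentages of each class in the 2 genotypes, and the part of this in the result was not tested beyond the contrasts of single clusters, in which 5, 1 and 1 genes were called.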

How the results depend on the processing

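No paired analysis was possible because the library letters are not tied to the numbered samples. Over all cells, 4 genes passed, against 10 in DESeq2's Wald test, 0 with an equal class mix and 0 to 2 when 1 library was left out. The log2 differences of Psmb8, Psmb9, Psmb10 and Psma7 were above 0 under all 11 alternatives, and their adjusted p was above 0.05 in 4, 3, 5 and 8 of these alternatives. Their adjusted p ranged from 2.68e-13 to 0.505 (Psmb8), 1.15e-10 to 0.230 (Psmb9), 9.09e-07 to 0.228 (Psmb10) and 5.46e-06 to 0.228 (Psma7). Within classes, with 0 genes passing, library totals gave 3 in HSPC-like and 1 in neutrophil-like cells, and leaving out 1 library gave 0 to 5 in HSPC-like, 0 to 2 in monocyte-like and 0 to 8 in neutrophil-like cells. For monocyte-like against HSPC-like cells the 34 genes became 21 in the enhancer-deleted libraries alone, 20 at resolution 0.6, 18 between clusters 8 and 0, and 21 to 32 with 1 library left out. For neutrophil-like against HSPC-like cells the 24 became 43 between clusters 15 and 11. The 27 genes of the monocyte-like interaction became 15 at resolution 0.6, 4 with the proteasome genes kept in the clustering, 5, 1 and 1 between cluster 8 and clusters 0, 2 and 11, and 1 to 31 with 1 library left out. The neutrophil-like interaction, with 0 genes, gave 1 at resolution 0.6, 1 between clusters 15 and 0, 1 between clusters 15 and 11, and 0 to 3 with 1 library left out. The ratio of the immunoproteasome share was 1.36 as a median over cells. The split of the neutrophil-like contrast, 16 higher and 8 lower, turned to 4 and 13 at resolution 0.6, 6 and 15 at 1.4, 4 and 23 with the proteasome genes kept in the clustering, 5 and 11 between clusters 15 and 0, and 6 and 12 with library totals. The monocyte-like interaction was lower in all its calls except Psme1, which was higher between cluster 8 and clusters 0 and 11. Library totals gave 21 higher and 8 lower in the monocyte-like contrast, 3 and 27 in the erythroid-like one and 4 and 4 in cluster 13, where TMM gave 27 and 7, 12 and 8, and 8 and 1. The causes were not tested. Most counts under the alternatives are given without the share of all genes called, so they show only how far the calls moved. With 1 library left out, the lone library is assumed to vary like the others. The shallower enhancer-deleted cells limit the precision of genes with few UMIs.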
